A study of Mus musculus with 6 samples.

Results

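Gas5, Snhg1, Snhg3, Snhg4, Snhg5, Snhg6, Snhg8, Snhg12, Snhg15 and Snhg17 are non-coding genes whose introns carry small nucleolar RNAs (snoRNAs). These 10 genes were taken by name, out of 55487 genes in the count table, as non-coding snoRNA hosts whose spliced RNA is a substrate of nonsense-mediated decay and were selected on their measured counts, which had been seen to be higher in treated cells. Since they were chosen by this contrast, their own fold changes in it are given below as a description, without a test. The 10 names matched 11 rows, because 2 gene identifiers were both named Snhg4. The cells were αTC1, written alphaTC1 in the sample records, a glucagon-producing line from a mouse glucagonoma. In 3 libraries the cells had received G786-1089 and in the other 3 the solvent DMSO. The sample records name only the compound, and the series design names its treatment as an inhibitor of SMNDC1, a Tudor domain protein of the spliceosome, so the 2 were taken to be the same. No genetic change separated the groups, and neither a dose nor a duration was given for these libraries. The comparison asked how inhibiting this splicing factor alters gene expression, and all 6 libraries came from 1 cell line.

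snoRNAs are short nucleolar RNAs that guide the chemical modification of ribosomal RNA. Box C/D snoRNAs direct 2′-O-methylation and H/ACA snoRNAs direct pseudouridylation. In mammals most of them are not transcribed alone but are cut out of an intron after the host transcript has been spliced, so that splicing yields both a snoRNA and a spliced host RNA. In many host genes the spliced RNA has no long reading frame. The short frames it does have end well before the last exon junction, which makes the RNA a target of nonsense-mediated decay when it is translated. Several of these hosts also begin with a run of pyrimidines, the terminal oligopyrimidine (TOP) start shared with ribosomal protein genes.

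The introns of the 10 genes held 35 records annotated as snoRNA genes (GENCODE vM21, GRCm38), 10 of them in Gas5 and 8 in Snhg1. Mir1949 in Snhg4 and Mir5117 in Gas5 are microRNA names among them, and Snord80 and Snora16a each have a pair of overlapping records. Mir5117 is named Gm50452 in the count table and below. Leaving aside Snhg4, 33 snoRNA sequences were read from that genome, and they ran from 60 to 205 bases. The letters TGATGA within the first 25 bases together with CTGA within the last 15, as in box C/D snoRNAs, were found in 18 of them, and ACA within the last 8 bases, as in H/ACA snoRNAs, in 11, of which 1 (Gm50452 of Gas5) also had the C and D letters. The sequences below stand for both classes and for hosts described later, with the C and D letters or the ACA in capitals. Snord47 lies in an intron of Gas5 (chr1:161038082-161038158, plus strand), Snord87 in Snhg6 (chr1:9942463-9942549, minus strand), Gm24452 in Snhg1 (chr19:8724531-8724602, plus strand), Snora24 in Snhg8 (chr3:123507937-123508066, minus strand) and Snora9 in Snhg15 (chr11:6528033-6528165, minus strand).
Snord47: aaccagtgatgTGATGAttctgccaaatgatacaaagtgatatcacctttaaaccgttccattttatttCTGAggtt
Snord87: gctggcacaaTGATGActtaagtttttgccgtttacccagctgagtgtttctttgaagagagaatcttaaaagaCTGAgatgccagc
Gm24452: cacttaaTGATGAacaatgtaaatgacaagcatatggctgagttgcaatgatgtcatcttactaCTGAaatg
Snora24: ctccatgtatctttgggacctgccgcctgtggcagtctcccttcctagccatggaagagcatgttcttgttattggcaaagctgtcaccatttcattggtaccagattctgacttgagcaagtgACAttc
Snora9: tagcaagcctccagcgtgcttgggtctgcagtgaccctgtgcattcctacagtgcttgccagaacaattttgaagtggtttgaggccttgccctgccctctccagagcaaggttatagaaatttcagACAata

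Snhg5 carried a pair of near copies, shown because their reads are hard to assign to one or the other. Snord50a (chr9:88521529-88521600, minus strand) and Snord50b (chr9:88521797-88521868, minus strand) are both 72 bases long and differed by C50A alone, with Snord50a first and positions counted from 1 at the 5′ end.
Snord50a: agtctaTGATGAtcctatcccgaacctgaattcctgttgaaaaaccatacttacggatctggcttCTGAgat
Snord50b: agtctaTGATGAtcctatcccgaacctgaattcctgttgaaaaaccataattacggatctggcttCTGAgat

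The start sites were compared with all promoters in RefSeq (GRCm38.p6). Leaving aside Snhg4, 8 of the genes had 10 start windows there, a pair each in Gas5 and Snhg17, and Snhg6 had none. A run of at least 6 C or T letters within 15 bases on either side of the start was present in 6 of the 10 windows (60%), in 29.2% of 32851 windows of all genes and in 53.3% of ribosomal protein gene windows. The letters TATAA or TATAT in the 50 bases before the start were present in 4 of 10 windows (40%) and in 6.87% of all windows. The same letters read on the other strand occurred in 30% and 5.49%, and both patterns were chosen after the sequences had been looked at. The windows below cover 50 bases before and 30 bases from the start, with the longest C or T run near the start and any TATAA or TATAT in capitals, and show where the run lies. It spans the start in Gas5, Snhg8 and Snhg12 and begins only at base 8 and base 5 after it in Snhg5 and Snhg1. They lie at chr1:161035116-161035195 (plus, Gas5), chr3:123508307-123508386 (minus, Snhg8), chr4:132308628-132308707 (plus, Snhg12), chr9:88522868-88522947 (minus, Snhg5) and chr19:8723437-8723516 (plus, Snhg1). The other Gas5 window (chr1:161034551-161034630), not shown, had a longest run of 3 and neither TATAA nor TATAT. Snhg15 (chr11:6528731-6528810, minus) is shown as a host whose longest run was 4.
Gas5: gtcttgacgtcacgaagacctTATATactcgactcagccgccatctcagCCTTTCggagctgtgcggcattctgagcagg
Snhg8: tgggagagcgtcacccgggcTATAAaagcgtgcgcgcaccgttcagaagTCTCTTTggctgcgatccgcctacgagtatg
Snhg12: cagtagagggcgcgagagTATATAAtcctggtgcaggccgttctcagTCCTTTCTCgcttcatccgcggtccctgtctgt
Snhg5: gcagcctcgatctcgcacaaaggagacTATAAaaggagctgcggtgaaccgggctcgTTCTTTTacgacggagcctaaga
Snhg1: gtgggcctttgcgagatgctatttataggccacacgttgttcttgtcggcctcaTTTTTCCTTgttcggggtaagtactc
Snhg15: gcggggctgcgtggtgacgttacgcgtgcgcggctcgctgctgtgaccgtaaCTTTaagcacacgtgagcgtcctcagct

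In the annotation of the count table (GRCm38) the genes lie on 8 chromosomes, and none is a protein-coding gene except the second row named Snhg4. Gas5 spans chr1:161034422-161038539 (plus strand), with 13 exon blocks and 851 exonic bases in the basic set of GENCODE vM21. Snhg1 spans chr19:8723475-8726443 (plus), with 10 blocks and 865 bases. Snhg5 spans chr9:88495268-88523562 (minus), Snhg6 chr1:9941959-9944118 (minus), Snhg8 chr3:123507552-123508404 (minus) and Snhg12 chr4:132308623-132311024 (plus). Snhg15 spans chr11:6525591-6528779 (minus) and Snhg17 chr2:158353700-158361580 (minus), the latter with 4368 exonic bases against 604 in Snhg8, whose 2 exon blocks flank the intron with Snora24.

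Total counts per library ran from 59070705 to 94747943. Of 15082 genes with enough counts to test, 1053 were higher with G786-1089 (6.98%) and 1177 were lower (7.8%), 14.8% in all, at an adjusted p under 0.05 by edgeR's quasi-likelihood test. Scaling by library size alone moved the median log2 fold change of all tested genes from 0.041 to 0.246 and the calls to 1630 higher and 796 lower. The study states that, for cell culture in general, the treatments of a replicate came from 1 shared batch of cells and were handled together. No source used here says which libraries formed a replicate or how far the 3 libraries of a group were separate cultures, so p-values measure only the spread between these libraries. Of 10 alpha cell markers, 9 had a mean of at least 1 FPKM (fragments scaled to gene length and library size). The summed marker level was 3241 to 3861 FPKM with G786-1089 and 18670 to 21050 FPKM with DMSO, most of it Gcg, which encodes proglucagon. Of 8 beta and delta cell markers, Hhex, Ins1, Pdx1 and Sst were at 0, with summed levels of 1.42 to 3.47 FPKM and 2.75 to 4.82 FPKM. Of 7 fibroblast, immune and endothelial markers, Col3a1 and Cdh5 were at 0, with sums of 6.10 to 14.2 FPKM and 4.43 to 6.53 FPKM. The fibroblast marker Col1a2 had at most 0.0669 CPM with G786-1089 and 1.63, 4.91 and 1.18 CPM with DMSO. The part that these differences had in the host gene levels was not tested.

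Of the 11 rows, 9 had enough counts to be tested and 2 were at 0. The 9 tested rows ranged from 0.04 to 4.43 in log2 fold change (G786-1089 over DMSO) with a median of 2.23, beside 0.041 over all tested genes. In 8 of 9 every treated library exceeded every DMSO library, which held for 18.2% of all tested genes. Since the contrast chose these genes, nothing is read from that count. Summed over the rows, the hosts took 421, 335 and 372 CPM (counts scaled to library size and TMM factors) in the treated libraries and 79.4, 89.1 and 89.9 CPM in the DMSO libraries. The groups lay far apart, and the mean of the sum was 4.36-fold higher with G786-1089 (376 ± 43.3 against 86.2 ± 5.84 CPM, SD, n = 3). In bulk RNA, a change in the share of cells that express a gene and a change in RNA per cell cannot be told apart.

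**Figure D1:**
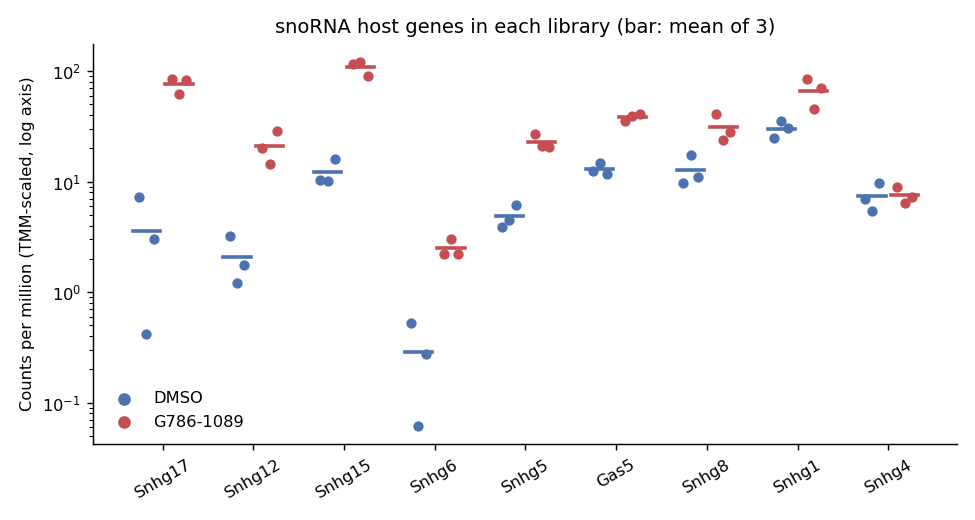
CPM (TMM-scaled, log axis) of the 9 host genes with counts in each DMSO (blue) and G786-1089 (red) library, ordered by fold change; points are libraries and bars the mean of 3. The groups are apart for 8 genes and overlap for Snhg4.

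By the deposited FPKM, the greatest fold changes were in hosts with less RNA per length than Gas5 in DMSO. For Snhg15 this placing depends on the gene length used. Its mean in DMSO was 12.2 CPM against 13.0 CPM for Gas5, and GENCODE vM21 gives them 675 and 851 exonic bases. Snhg17, whose introns hold 3 H/ACA snoRNA genes (Gm24411, Gm26003 and Gm23925), had 85.0, 61.7 and 82.2 CPM with G786-1089 and 7.18, 0.416 and 3.04 CPM with DMSO. All treated libraries were high and even the lowest stood 8.59-fold over the highest DMSO library, which itself spread widely (coefficient of variation 96.3%). The log2 fold change was 4.43 (SE 0.90) and ran from 3.89 to 5.48 when any 1 library was left out. Snhg12, host of Snora16a, Snora44, Snora61 and Snord99, had 20.0, 14.4 and 28.7 CPM with G786-1089 and 3.22, 1.20 and 1.77 CPM with DMSO, without overlap (log2 fold change 3.35, SE 0.49). Snhg15, host of Snora9 printed above, had 117, 120 and 91.2 CPM with G786-1089 and 10.4, 10.2 and 15.9 CPM with DMSO. Its treated libraries were all high, and with a log2 fold change of 3.17 (SE 0.24) it combined a large difference with a small spread.

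Snhg6, host of Snord87, had the lowest level per length among hosts with counts and stood at 2.23, 3.04 and 2.20 CPM in treated and 0.526, 0.0616 and 0.276 CPM in DMSO libraries. The groups did not overlap, but the DMSO values came from 32, 4 and 15 counts, and the log2 fold change of 3.11 (SE 0.88) is correspondingly loose. Snhg5, host of the Snord50 pair, had 26.7, 20.9 and 20.7 CPM with G786-1089 and 3.91, 4.46 and 6.18 CPM with DMSO. Every treated library was at least 3.35-fold over the highest DMSO library, and the log2 fold change was 2.23 (SE 0.29). The file and GENCODE vM21 give Snhg5, and likewise Snhg15, different coordinates, so the length-scaled values of both refer to the file's own models.

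The hosts with the most exonic RNA per length in DMSO, by the deposited FPKM, differed less. Gas5, named for its accumulation in growth-arrested cells and a TOP gene long known to be cleared by nonsense-mediated decay, had 35.5, 38.9 and 41.3 CPM with G786-1089 and 12.4, 14.7 and 11.8 CPM with DMSO. Both groups were tight and apart, with a log2 fold change of 1.57 (SE 0.19). Snhg8, host of Snora24, had 41.1, 23.7 and 28.4 CPM in treated and 9.81, 17.6 and 11.0 CPM in DMSO libraries. Here G786-1089 A was high among the treated and DMSO B high among the controls, so that the nearest libraries were only 1.35-fold apart (log2 fold change 1.28, SE 0.33). Snhg1, host of 8 mostly box C/D snoRNAs, had 84.6, 45.3 and 70.2 CPM with G786-1089 and 24.99, 35.1 and 30.3 CPM with DMSO. G786-1089 B was the lowest treated library and stood 1.29-fold over DMSO B, and the log2 fold change was 1.15 (SE 0.26).

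Snhg4 stood apart from the other hosts. The row with counts (chr18:35553371-35558316, host of Snora74a) had 9.01, 6.34 and 7.23 CPM with G786-1089 and 6.90, 5.43 and 9.70 CPM with DMSO. The groups overlapped, the highest value was a DMSO library, and the log2 fold change of 0.04 (SE 0.36) ranked 7576 of 15082. Leaving out 1 library moved it between -0.14 and 0.28. The other row named Snhg4 is annotated as protein-coding, runs on into Matr3, and was at 0 in all 6 libraries, with 100% of its exonic bases shared with other genes.

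Snhg3, host of Snora73a and Snora73b, was also at 0 in every library, although it lies near Snhg12 (chr4:132348014-132353686, minus strand). Of its exonic bases 90.7% overlap Gm17300 on the opposite strand or Snora73a. The read counting ignored strand and set aside reads that touched more than 1 gene. Among 289 genes with all exonic bases shared in the annotation, 284 (98.3%) were at 0 in all libraries, beside 45.1% of 31449 other coding and long non-coding genes. Snhg3, with 90.7% shared, is not among the 289, and genes shared in part were not counted separately. Gm17300 itself had 2.13, 3.02 and 2.31 CPM with G786-1089 and 3.12, 1.94 and 2.10 CPM with DMSO, which overlapped. How much Snhg3 RNA the cells held is thus not given by these counts. Shared exonic bases in GENCODE vM21 were fewer in the other hosts, at 23.5% in Snhg12, 19.7% in Snhg15, 17.1% in Snhg4, 13.8% in Snhg1, 13.0% in Snhg6, 5.40% in Snhg17 and 0% in Gas5, Snhg5 and Snhg8. The file's coordinates differ for Snhg15 and Snhg5, so their 19.7% and 0% may not hold for the models that were counted.

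Per length, the order of the hosts in DMSO was Snhg1 (32.0 ± 5.34 FPKM, SD, n = 3), Snhg8 (19.5 ± 6.31), Gas5 (14.0 ± 1.61), Snhg4 (5.67 ± 1.69), Snhg15 (4.51 ± 1.21), Snhg5 (1.55 ± 0.380), Snhg12 (1.34 ± 0.676), Snhg17 (0.746 ± 0.717) and Snhg6 (0.270 ± 0.218). Between neighbours, ranges overlapped except from Gas5 to Snhg4 and from Snhg15 to Snhg5. With G786-1089 the order was Snhg1 (70.6 ± 20.7 FPKM, SD, n = 3), Snhg8 (47.1 ± 13.5), Gas5 (41.5 ± 3.14), Snhg15 (40.5 ± 6.04), Snhg17 (15.996 ± 2.588), Snhg12 (13.6 ± 4.59), Snhg5 (7.24 ± 1.06), Snhg4 (5.79 ± 1.02) and Snhg6 (2.33 ± 0.457). There the first 4 overlapped with their neighbours, and ranges were apart above Snhg17, above Snhg5 and above Snhg6. The highest mean level was 118-fold over the lowest in DMSO and 30.3-fold with G786-1089. Across the 9 hosts, Spearman's rho between the DMSO level and the log2 fold change was -0.77. The same DMSO libraries enter both quantities, so this is a description of the ordering only. It also rests on the lengths behind the FPKM values, which for Snhg15 and Snhg5 come from models with other coordinates than in GENCODE vM21. Snhg15 made up 14.1% of the summed CPM of the hosts in DMSO and 29.1% with G786-1089, and Snhg1 went the other way, with 35.0% and 17.7%.

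**Figure D2:**
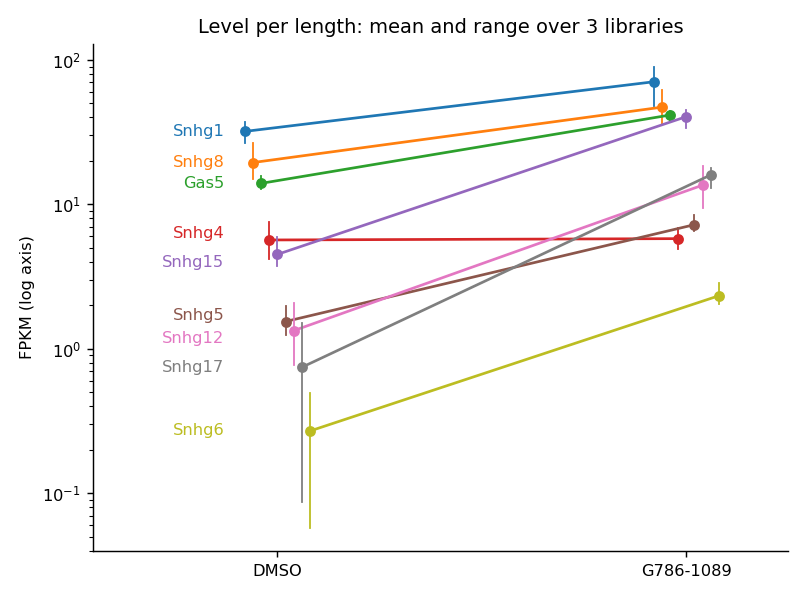
FPKM (log axis) of the 9 host genes in DMSO and with G786-1089; points are means of 3 libraries, vertical lines the lowest to highest library, and lines join the same gene. The means of Snhg15, Snhg17, Snhg12 and Snhg5 pass that of Snhg4, which is 5.67 in DMSO and 5.79 with G786-1089.

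Non-coding snoRNA hosts that were not among the 10 genes came next. By annotation there were 52 of them, of which 14 were tested, and 12 of the 14 lay above 0 (median log2 fold change 1.16), beside 0.041 over all tested genes. By edgeR's test 6 were higher and 1 was lower (42.9% and 7.14%, against 6.98% and 7.8% of all genes). With any 1 library left out 4 or 5 were higher, and 3 with the column letters A to C as a block. Some of these genes had been seen in earlier results of the same libraries, so they are no independent evidence of the direction.

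Snhg16, which carries Snord1a, Snord1b and Snord1c, had 13.9, 11.2 and 9.63 CPM with G786-1089 and 0.394, 0.693 and 0.239 CPM with DMSO. All treated libraries were high, and the log2 fold change was 4.70 (SE 0.54, adjusted p = 0.00273 by edgeR's quasi-likelihood test). The uncharacterised gene 2410006H16Rik, host of Snord49a, Snord49b and Snord65, had 57.3, 56.1 and 61.5 CPM with G786-1089 and 3.27, 4.19 and 1.55 CPM with DMSO (log2 fold change 4.28, SE 0.39, adjusted p = 0.00114 by edgeR). Its treated values were nearly level and none came near a DMSO library. Zfas1, antisense to the start of Znfx1 and host of Snord12, had 18.2, 14.0 and 18.2 CPM against 4.14, 1.91 and 3.35 CPM (log2 fold change 2.42, SE 0.38, adjusted p = 0.00825 by edgeR). In 1110038B12Rik, host of Snord52, the values were 12.3, 7.63 and 10.2 CPM against 1.35, 2.22 and 1.29 CPM (log2 fold change 2.63, SE 0.43, adjusted p = 0.00932 by edgeR). All 4 were called higher with each library left out in turn. With the letters as a block 1110038B12Rik was not called (adjusted p = 0.0533 by edgeR). Of the exonic bases of Zfas1 and Snhg16, 36.7% and 28.5% are shared with other genes, and reads were counted without regard to strand.

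The other pair of higher hosts was less stable. Epb41l4aos had a log2 fold change of 1.19 (SE 0.30, adjusted p = 0.0437 by edgeR), and its adjusted p was 0.058 to 0.12 with any 1 library left out. 2700038G22Rik, host of Snord93, had 0.99 (SE 0.26, adjusted p = 0.0493 by edgeR), with 0.0344 to 0.148 when 1 library was left out. The call held only without G786-1089 A. AA465934 (log2 fold change 2.10, SE 0.74) and Rab26os (1.14, SE 0.51) did not overlap between groups but had adjusted p = 0.117 and 0.202 by edgeR. Dancr, a host of Snora26 known for holding back differentiation, had 0.88 (SE 0.47), Snhg9 0.56 (SE 0.52), Snhg14 0.61 (SE 1.21), 2310014F06Rik 1.18 (SE 1.15) and 9330159M07Rik -0.86 (SE 2.33), and in all 5 the groups overlapped. AI506816 was the lower gene, with 444, 411 and 369 CPM against 703, 803 and 710 CPM (log2 fold change -0.86, SE 0.09, adjusted p = 0.00222 by edgeR). The only small RNA feature in its introns carries a microRNA name, Mir3096. Among hosts known by name but not by this annotation, Snhg20 had overlapping groups, with 81.3, 79.5 and 76.1 CPM against 76.0, 84.9 and 59.6 CPM (log2 fold change 0.10, SE 0.15). Snhg10 overlapped too, with 7.38, 3.78 and 12.6 CPM against 4.75, 3.94 and 4.08 CPM (log2 fold change 0.90, SE 0.50).

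**Figure D3:**
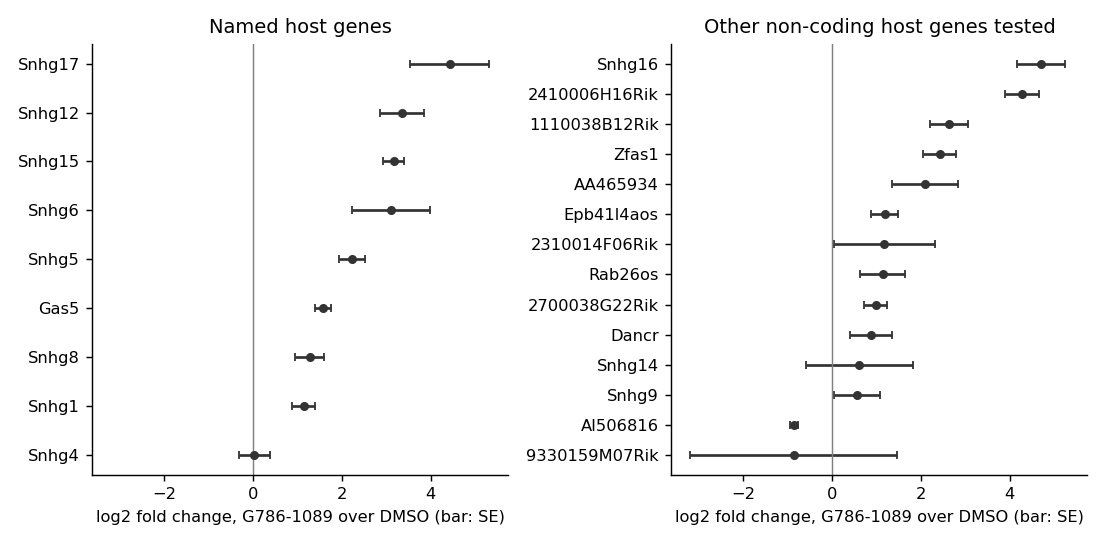
log2 fold change of G786-1089 over DMSO for the 9 named host genes with counts (left) and the 14 other non-coding host genes tested (right); points are edgeR estimates and bars their SE. Snhg4 sits at 0.04 on the left, and AI506816 at -0.86 and 9330159M07Rik at -0.86 are the only points below 0.

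Long non-coding genes without a snoRNA were counted for comparison. Of 1097 tested, 33 were higher (3.01%) and 48 lower (4.38%), with a median log2 fold change of -0.024. With 1 library left out, 13 to 21 were higher and 21 to 44 lower, and with the letters as a block 11 and 18. Restricted to a mean log2 CPM of at least 3, 10 of 103 were higher (9.71%) and 22 lower (21.4%), while among the other non-coding hosts at that level 4 of 5 were higher and 1 was lower. No test of the difference between these lists was made.

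Most snoRNAs in mammals sit in protein-coding genes, many of which encode ribosomal proteins. Of 258 protein-coding hosts 199 were tested, and 23 were higher (11.6%) and 26 lower (13.1%), against 6.98% and 7.8% of all genes. With 1 library left out 11 to 14 were higher and 18 to 21 lower, DESeq2 called 35 higher, and with the letters as a block 9 were higher. Their median log2 fold change was 0.029, and it was -0.047 after a correction for gene length. The 29 ribosomal protein genes that hold a snoRNA included 14 that were lower and 1 that was higher, Rpl3 (log2 fold change 0.53, SE 0.07). Their median was -0.354, and -0.166 with 9 lower after the length correction. With any 1 library left out 9 or 10 were lower, and 8 with the letters as a block. Rpl13 was among the lower genes, with 620, 622 and 663 CPM with G786-1089 and 857, 764 and 742 CPM with DMSO (log2 fold change -0.31, SE 0.08), while Rpl4 (-0.02, SE 0.09) did not pass the test. Ribosomal protein genes without a snoRNA gave 22 lower and 1 higher of 50, the latter being Rpl22l1 (1.18, SE 0.19), with a median of -0.421, and -0.213 with 14 lower after the length correction. Rpl19 was at -0.72 (SE 0.05), Rpl14 at -0.62 (SE 0.10), Rpl41 at -0.53 (SE 0.09) and Rplp0 at -0.22 (SE 0.05), all called lower. The medians of ribosomal protein genes with and without a snoRNA thus lay on the same side of 0, opposite to the non-coding hosts.

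Among the 170 other protein-coding hosts tested, 22 were higher and 12 lower, with a median of 0.172. The number higher was 10 to 13 with any 1 library left out and 8 with the letters as a block. By level the leading genes were Hspa8, the constitutive heat shock cognate protein, at -0.67 (SE 0.05), Atp5b at -0.46 (SE 0.04) and Atp5c1 at -0.37 (SE 0.06), subunits of ATP synthase and called lower, and Slc25a3, the mitochondrial phosphate carrier, at -0.06 (SE 0.05). Hosts that were higher and that were picked after their values were seen included Gnl3, encoding nucleostemin (1.86, SE 0.17), and Eif4a2, a translation initiation helicase (1.76, SE 0.12). Of 15 other mRNAs with a TOP start, 2 were higher, Npm1 (0.30, SE 0.06) and Eif4b (0.82, SE 0.18), and 5 were lower, among them Rack1 (-0.47, SE 0.07), with a median of -0.208. Eef1a1 (-0.21, SE 0.07) and Eif3h (-0.04, SE 0.07) did not pass the test. With any 1 library left out 0 or 1 of this list were higher and 3 or 4 lower, with scaling by library size alone 2 were lower, and the shares called were 13.3% and 33.3% beside 6.98% and 7.8% of all genes.

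**Figure D4:**
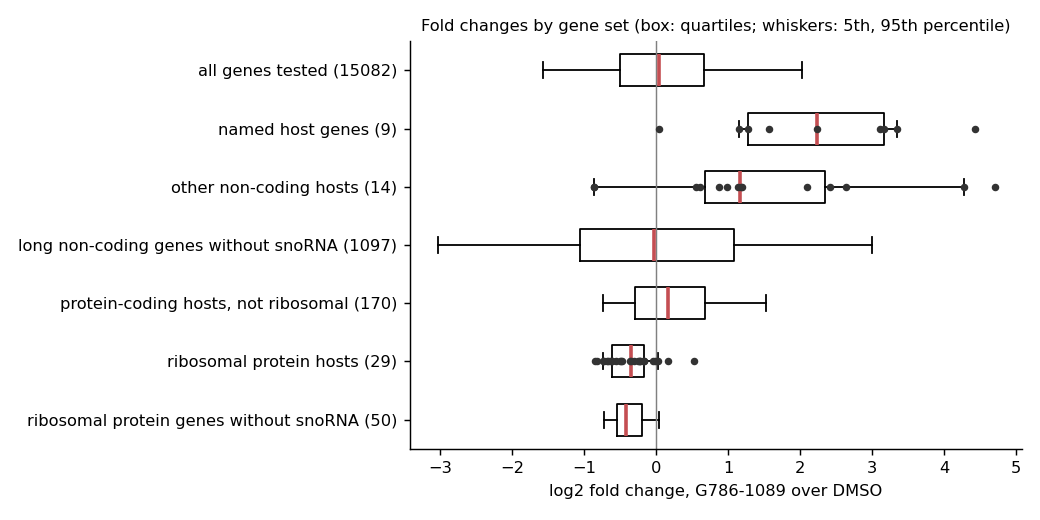
log2 fold changes of G786-1089 over DMSO by gene set, with the number tested in brackets; boxes are quartiles with the median in red, whiskers the 5th and 95th percentiles, and points single genes in sets of up to 30. The medians are 2.23 in the named hosts and 1.16 in the other non-coding hosts, and -0.354 and -0.421 in ribosomal protein genes with and without a snoRNA.

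The snoRNA genes have rows of their own in the count table, which the choice of the 10 hosts did not use. Of the 35 rows within their introns, 24 had any count and 16 were tested. No row was called higher or lower by edgeR at an adjusted p under 0.05, or by DESeq2. At an unadjusted p under 0.05 there was 1, Gm25894 of Snhg1, with 0.0535, 0.0799 and 0.0115 CPM with G786-1089 and 0.247, 0.339 and 0.386 CPM with DMSO (log2 fold change -2.70, SE 0.86, adjusted p = 0.0872 by edgeR). Of the 16 rows 14 lay below 0, while 51.8% of all tested genes lay above 0. Gas5 held 8 of the rows and Snhg1 7, so they are not independent of each other. On log2(FPKM + 1) values limma called 1 row higher and 1 lower. The libraries were primed on poly(A) tails, which mature snoRNAs lack, and the reads cannot tell a snoRNA from unspliced or retained intron that contains it.

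Summed over the 35 rows, the level was 4.92, 3.44 and 4.84 CPM with G786-1089 and 5.54, 10.2 and 6.61 CPM with DMSO. Every treated library was below every DMSO library, although by a small margin, and the means were 4.40 ± 0.836 and 7.45 ± 2.44 CPM (SD, n = 3). As a percentage of the host counts in the same library, these rows came to 1.17%, 1.03% and 1.30% with G786-1089 and to 6.98%, 11.4% and 7.35% with DMSO. The share was therefore lower in treated libraries, where the host counts in its denominator were higher. That denominator also holds Snhg15, Snhg17 and Snhg12, whose snoRNA rows were at or near 0. They made up 29.1%, 20.3% and 5.6% of the summed host CPM with G786-1089 and 14.1%, 4.12% and 2.39% with DMSO. Within Gas5 the share was 6.81%, 7.036% and 7.533% with G786-1089 and 22.72%, 28.33% and 23.94% with DMSO. Within Snhg1 it was 2.229%, 1.234% and 1.101% against 8.026%, 15.39% and 11.3%. The part that the mix of hosts had in the pooled share was not tested.

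Gas5 and Snhg1 supplied 15 of the 16 tested rows. The 10 rows in Gas5 summed to 2.42, 2.74 and 3.11 CPM with G786-1089 and 2.83, 4.16 and 2.81 CPM with DMSO, and these overlapped while the exonic counts of Gas5 were apart. Within Gas5, 6 of 8 tested rows lay below 0, from Snord78 at -0.996 (SE 0.79) to Snord47, printed above, at -0.31 (SE 0.75). The other pair lay above 0, Gm50452 at 1.21 (SE 0.87) and Gm25789 at 2.27 (SE 1.12). The 8 rows in Snhg1 summed to 1.89, 0.559 and 0.773 CPM with G786-1089 and 2.01, 5.40 and 3.42 CPM with DMSO. Here the groups did not overlap, in the direction opposite to the exonic counts, and the mean was 3.37-fold higher in DMSO. Of the 7 tested rows all lay below 0, and Gm24452, printed above, was at -1.42 (SE 0.75). G786-1089 A and DMSO A came close to each other, at 1.89 and 2.01 CPM.

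**Figure D5:**
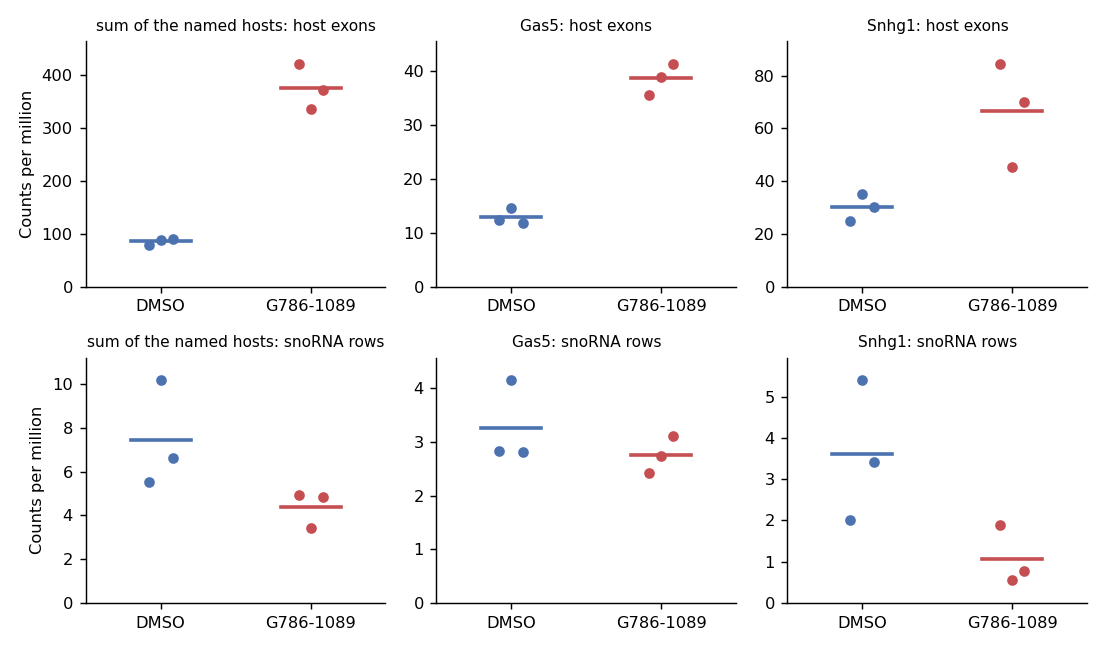
TMM-scaled CPM in each library for host gene rows (top) and for the snoRNA rows in their introns (bottom), summed over the named hosts (left), for Gas5 (middle) and for Snhg1 (right); bars are means of 3 libraries and axes start at 0. Host exons stand apart upward with G786-1089, while the snoRNA rows of Snhg1 average 1.07 CPM with G786-1089 and 3.61 CPM with DMSO.

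In the remaining hosts the snoRNA rows were sparse. The Snora24 row of Snhg8 had 1, 4 and 43 counts with G786-1089 and 29, 37 and 10 with DMSO, and the Snord87 row of Snhg6 had 1, 0 and 38 against 7, 0 and 0. In both, a single treated library, G786-1089 C, held nearly all treated counts. Snord50a of Snhg5 had 9, 7 and 2 counts against 6, 2 and 6, and its near copy Snord50b had 0, 0 and 0 against 1, 2 and 4. The 33 counts of Snora74a in Snhg4 all came from G786-1089 A. The 5 rows in Snhg12, the row in Snhg15 and the pair in Snhg3 were at 0 in all libraries, and those in Snhg17 held 2 counts in total. By GENCODE vM21, Snora44, Snora61, Snord99, Snora9, Snora73a, Gm24411 and Gm26003 overlap a basic exon of their host, and the Snora16a records overlap each other. Reads that touched more than 1 gene were set aside, so counts at or near 0 there do not measure the snoRNA. Snord22 and Gm25855 of Snhg1 overlap such an exon too and did have counts. Snora73b of Snhg3 and Gm23925 of Snhg17 overlap no such exon and were at 0 in all libraries. Over all 1507 snoRNA rows of the table, 84 were tested (median 0.142), and by edgeR 1 was called higher and 0 lower. The 1 row was Snord7 in AA465934 (log2 fold change 4.15). The rows in protein-coding hosts summed to 54.5, 64.5 and 49.1 CPM with G786-1089 and 45.5, 40.7 and 40.9 CPM with DMSO, so that there every treated library was above every DMSO library.

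Genes that build snoRNA particles or act on the spliced host RNA were counted from lists. Genes named here for passing the test were picked after their values were seen. Of 17 snoRNP proteins and assembly factors, 4 were higher and 3 lower, with a median log2 fold change of 0.046. Nop56 (0.29, SE 0.08) and Nop58 (0.51, SE 0.13), core proteins of box C/D particles and themselves snoRNA hosts, were higher, as were Ruvbl2 (0.63, SE 0.13) and Zfp330 (1.05, SE 0.22). Nhp2 (-0.54, SE 0.10) and Nop10 (-0.50, SE 0.12), core proteins of H/ACA particles, were lower, as was Snu13 (-0.64, SE 0.16), which binds box C/D RNA and the spliceosome. Fbl, the box C/D methyltransferase (-0.21, SE 0.20), Dkc1, the H/ACA pseudouridine synthase (-0.23, SE 0.13), and Pih1d1 (-0.51, SE 0.19) did not pass the test. With any 1 library left out, 0 to 2 genes of this list were higher and 0 to 2 lower, and with the letters as a block 2 and 1. The shares called were 23.5% and 17.6% beside 6.98% and 7.8% of all genes.

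Of 16 genes of snoRNA processing and exonucleases, 3 were higher and 1 lower. Dbr1, which opens the intron lariat from which snoRNAs are released, was at 1.001 (SE 0.20), with 45.0, 31.4 and 35.7 CPM against 18.0, 18.9 and 19.2 CPM. The exosome subunits Exosc10 (0.69, SE 0.12) and Exosc2 (0.84, SE 0.21) were higher and Exosc4 (-0.35, SE 0.08) was lower, while Exosc5 (0.15, SE 0.14), Exosc7 (0.23, SE 0.10) and Exosc8 (0.40, SE 0.22) did not pass. With 1 library left out, 0 to 2 genes of the list were higher and 0 lower, and with the letters as a block none of these 4 calls was kept. The shares called were 18.8% and 6.25% beside 6.98% and 7.8% of all genes.

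Of 19 nonsense-mediated decay factors, 2 were higher and 2 lower (10.5% each, beside 6.98% and 7.8% of all genes), with a median of 0.283. With any 1 library left out 1 or 2 were higher and 0 or 1 lower, and with the letters as a block 1 and 1. Upf2, which bridges the exon junction complex and Upf1, was at 1.29 (SE 0.25), with 39.3, 27.0 and 30.4 CPM against 10.9, 12.8 and 15.8 CPM. Smg9, a partner of the kinase Smg1, was at 2.31 (SE 0.35), with 10.9, 12.6 and 16.5 CPM against 3.01, 2.06 and 3.02 CPM. The exon junction proteins Eif4a3 (-0.39, SE 0.09) and Rbm8a (-0.46, SE 0.12) were lower with all libraries, and the adjusted p of Eif4a3 by edgeR was 0.0319 to 0.112 with 1 left out. Upf1, the central helicase, was low in all libraries, with 1.18, 1.05 and 2.11 CPM against 0.493, 1.14 and 1.93 CPM, which overlapped. Magoh (-0.47, SE 0.23), Ncbp1 (-0.34, SE 0.16) and Upf3b (0.13, SE 0.21) did not pass the test.

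Other genes listed for transcripts known to be cleared by nonsense-mediated decay moved in both directions. Their counts are per gene and do not separate the cleared transcripts from others of the same gene. Of 16 tested, 5 were higher and 2 lower (31.2% and 12.5%, beside 6.98% and 7.8% of all genes), with a median of 0.345. With any 1 library left out 3 to 5 were higher and 1 or 2 lower, and with the letters as a block 3 and 0. Ddit3, the stress factor CHOP, was the highest at 3.94 (SE 0.16), with 263, 286 and 332 CPM against 22.5, 18.3 and 16.8 CPM. Tbl2 (0.85, SE 0.15), Srsf6 (0.64, SE 0.09), Clk1 (0.63, SE 0.15) and Luc7l (0.58, SE 0.15) were higher, and Upp1 (-0.68, SE 0.11) and Srsf3 (-0.62, SE 0.12) were lower. Atf4 (0.46, SE 0.13, adjusted p = 0.0592 by edgeR), Gadd45a (-0.09, SE 0.10) and Srsf2 (0.02, SE 0.07) did not pass the test.

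Genes with a profile most like the mean of the hosts were sought among 7893 genes by Pearson's r over the 6 libraries, as a description, with the difference between the groups contained in every r. They were Bhlhe40, a transcription repressor (r = 0.998), Rsl1d1, a nucleolar protein (0.998), Lpin1, a phosphatidate phosphatase (0.997), Mtmr3, a lipid phosphatase (0.997), and Mthfd2, a mitochondrial folate enzyme (0.996). Their log2 fold changes were 4.04 (SE 0.24) for Bhlhe40, 0.41 (SE 0.06) for Rsl1d1, 1.92 (SE 0.16) for Lpin1, 1.01 (SE 0.15) for Mtmr3 and 0.31 (SE 0.05) for Mthfd2, so that a like profile did not mean a like size.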

How the data were processed

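RNA from αTC1 cells was amplified by Smart-seq2 (poly(A)-primed, not stranded) and made into Nextera XT libraries. As stated by the authors, paired reads were aligned with STAR to GRCm38 and counted per gene (Ensembl e100, basic) with summarizeOverlaps in Union mode, ignoring strand. The submitters' processing notes list Picard 2.19.2, STAR 2.7.9a, DESeq2 1.34.0 and R 4.1.3. The deposited raw counts are whole reads per gene. The deposited FPKM values were scaled by the authors for length and depth.

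Counts were tested with edgeR 4.0.16 (quasi-likelihood, TMM factors, filterByExpr with a minimum count of 10 and total of 15, Benjamini-Hochberg adjustment over all tested genes, threshold 0.05). SE is the log2 fold change divided by the root of the F statistic. Scripts were tested on simulated data. Host genes outside the 10 names were defined by a same-strand snoRNA inside an intron (GENCODE vM21, 99.4% of matched genes with the file's coordinates). Columns carry the letters A to C, which match no replicate number of the records, so libraries were assigned to groups only. Deviations of same-letter libraries correlated at 0.015, 0.003 and 0.025, and no pairing was used. The members and all lists were chosen with earlier results of these data known. All 10 members, all tested non-coding hosts, the 4 genes of highest mean FPKM in each list and the 5 most alike genes are named, apart from some genes not reported here, and other names were chosen after their values were seen. Alternatives were DESeq2 1.42.0, other scalings and filters, limma 3.58.1 on log2(FPKM + 1) or log2(FPKM + 0.1), a gene length offset, thinning, a block by letter and leaving out each library.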

Additional observations from a re-analysis of the deposited data

How the results depend on the processing

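The number of genes called over the whole table was 2230, and it was 3667 by DESeq2, 1232 with a replicate block by column letter, 995 with that block and a gene length offset, and 1253 to 1556 with 1 library left out. Higher calls among the other non-coding hosts numbered 6 and were 3 with the replicate block and 4 to 5 with 1 library left out. Lower calls among protein-coding hosts numbered 26 and were 16 with scaling by library size alone, 12 with the block and length offset, 1 when an adjusted p of at most 0.1 was joined to a change of 1 or more on the log2 scale, and 18 to 21 with 1 library left out. The median of the named hosts was 2.232, with 2.095 to 2.438 when 1 library was left out, and 1.508 by limma on log2(FPKM + 1), a scale that shrinks low values by construction. Snhg4 was reversed without G786-1089 A, DMSO A or DMSO B, within a range of -0.14 to 0.28. The cause of the other differences was not tested. Snhg6 moved most among the named hosts, from 1.40 to 3.62 over the settings that keep all libraries.

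With 3 libraries a group, exact permutation cannot go below p = 0.1. Depth limits the snoRNA rows, most of which held few counts, and so do bases that some of them share with a host exon. The SE, and any interval made from it, covers counting error and the spread between these libraries only. Neither dose nor time was available to relate to the host gene levels.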
